A study of Mus musculus with 8 samples.

Results

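Migratory dendritic cells of the brain were followed here across 8 single-cell libraries of CD45.2-positive cells. They were chosen by counts of 6 genes. A cell had at least 1 unique molecular identifier (UMI, which marks a captured transcript) of each of Ccr7, Fscn1 and H2-Aa, and none of Cd3e, Cd79a and C1qa, which mark T cells, B cells and macrophages. The gate held 88 of 46314 singlets, that is, of barcodes with at least 500 gene UMIs, at least 200 genes, at most 5% mitochondrial UMIs and 1 dominant hashtag antibody (at least 50 counts and 3 times the second). The cells came from WT mice and from App NL-G-F mice, which carry a humanized amyloid-β sequence with Swedish, Arctic and Iberian mutations knocked into App. Each genotype had a control library (water only), an acute colitis library (2% DSS, dextran sulfate sodium, for 1 cycle of a week), a chronic colitis library (3 cycles of 2% DSS and water) and a food allergy library (ovalbumin). The labels give an age of 16 weeks, and every condition was sequenced as 1 library. Up to 4 hashtags divided each library into hashtag groups, which served as the replicates, although the sources do not say which animals each one held. P-values over them therefore measure the spread between these groups. The brains were perfused, and an antibody to CD45 had been injected into the blood beforehand, although nothing in the counts tells which cells it stained. Of 45004 singlet barcode sequences, 1278 occurred in more than 1 library.

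Dendritic cells take up antigen in tissues and, after maturation, switch on the chemokine receptor CCR7, which guides them along lymphatic vessels to draining lymph nodes. Maturation includes the actin-bundling protein fascin (Fscn1), surface costimulatory proteins, chemokines that attract T cells and the NF-κB protein RelB, while uptake of antigen and synthesis of MHC class II fall. The resting counterparts are type 1 conventional dendritic cells (cDC1), which cross-present antigen to CD8 T cells, and type 2 conventional dendritic cells (cDC2), which mainly prime CD4 T cells. In the brain such cells lie in the meninges, the choroid plexus and the borders around vessels.

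The genes that chose the cells are given as a description. Ccr7 had a median of 19 UMIs per member and a range of 1 to 137. Fscn1 had a median of 26.5 UMIs and a range of 1 to 128, and H2-Aa had a median of 46 and a range of 1 to 236. Summed over members, Ccr7 came to 4229.7 CPM (UMIs per 1000000 gene UMIs) and Fscn1 to 4408 CPM. At the edge of the gate, 6 members had a single UMI of both Ccr7 and Fscn1, and in these no UMI of Ccl22 was found among 27052 gene UMIs. They held 370 CPM of Relb and 21 UMIs of Ccl17 (776 CPM), all of the latter in 1 WT acute colitis member. Just outside, 14 cells failed only for H2-Aa, and these held 799 CPM of Relb and 1034 CPM of Cacnb3, where the members had 863 and 584 CPM. Another 7 cells failed only for C1qa, and 6 of them had a UMI of Ccl22. So had 3 of 6 cells that failed only for Cd3e and 1 of 13 that failed only for Cd79a. A further 46 cells failed only for Ccr7 and 130 only for Fscn1, with 8.40 CPM and 153 CPM of Ccl22 against 712 CPM in the members.

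The label was checked against 24 other genes known from migratory dendritic cells, such as Ccl22, Relb, Cacnb3, Il4i1, Socs2, Cd83, Cd40 and Il12b. A member carried a median of 17 of them, with a range of 2 to 24, and 77 of 88 members carried at least 10. The remaining 11 members fell short, 6 of them in the WT food allergy library. Those 6 also carried 5 or more of 8 neutrophil markers, had between 511 and 3146 gene UMIs, and bore hashtag 5 in all cases but 1. The name fits these 6 cells poorly. It fits 1 WT chronic colitis member no better, which had 2 of the 24 markers, single UMIs of Ccr7 and Fscn1, and all 8 markers of plasmacytoid dendritic cells. The shares of singlets by library and over all hashtag groups, and the counts of genes against cDC1 and cDC2, are also given without the 6 cells and without this member. The share of dendritic cells in a subset of hashtag groups is also given without the 6 cells, but not without this member. The other 82 members had a median of 7708 gene UMIs and of 17.5 markers. Both WT control members were among the poorer ones in this respect, with 8 and 10 markers, and no UMI of Ccl22 or Ccl17.

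Fibroblast markers were at 0 in the members, and those of neutrophils and red cells came largely from 1 library each. Summed markers of microglia, macrophages, T cells and B cells were each under 100 CPM over all libraries. The gate left out cells with a UMI of C1qa, Cd3e or Cd79a, so the macrophage, T cell and B cell sums were low partly by design. The 8 markers of NK and innate lymphoid cells summed to 204 CPM, of which Il7r gave 177 CPM. The 5 fibroblast genes Col1a1, Col1a2, Col3a1, Dcn and Lum had no UMI, and neither had the microglial genes P2ry12 and Sall1 or the B cell genes Ighd and Pax5. The 7 T cell markers other than Cd3e summed to 90.2 CPM, with a range over libraries of 0 to 445 CPM (App NL-G-F control), of which Cd8a, also a gene of some dendritic cells, gave 53.1 CPM. The 8 neutrophil markers summed to 2415 CPM, led by S100a9 at 1013 CPM, and their sum was 10962 CPM in the WT food allergy library and between 7.49 and 166 CPM in the other 7. The 4 haemoglobin genes summed to 1505 CPM, nearly all from 1 App NL-G-F acute colitis member with 714 UMIs of Hbb-bs. That member had 3 UMIs of Ccr7, 1 of Fscn1, 2 of H2-Aa and 1 of Cd74, and 12 of the 24 migratory dendritic cell markers. No share is given without it. The 8 markers of plasmacytoid dendritic cells summed to 517 CPM, led by Bst2 at 274 CPM, and reached 2639 CPM in WT chronic colitis, where the 1 member named above held all 13 UMIs of Siglech and 54 of the 55 UMIs of Ly6d. In the other 7 libraries their sum lay between 111 and 528 CPM. The 8 monocyte markers summed to 1459 CPM and were highest in App NL-G-F control (2190 CPM) and App NL-G-F food allergy (2120.1 CPM). In the latter, 1 member held 7 of the 8 and had 21714 gene UMIs, the most of any member. It carried 19 of the 24 migratory dendritic cell markers, and no result is given without it. S100a4, which many leukocytes express, gave 1030.5 CPM of this, and Vcan had no UMI. Without the member with plasmacytoid markers, 1094 genes were higher and 1767 lower against cDC1, and 912 and 1193 against cDC2, in the comparisons described further on. Ccl22 had a UMI in 48 of 88 members (54.5%, median depth 7255 gene UMIs) against 2 of 9295 gated T cells (0.0215%, median depth 3021) and 1 of 3623 gated neutrophils (0.0276%, median depth 7941). Ccl17 had a UMI in 28.4% of members, 0.204% of T cells and 0.138% of neutrophils.

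**Figure D1:**
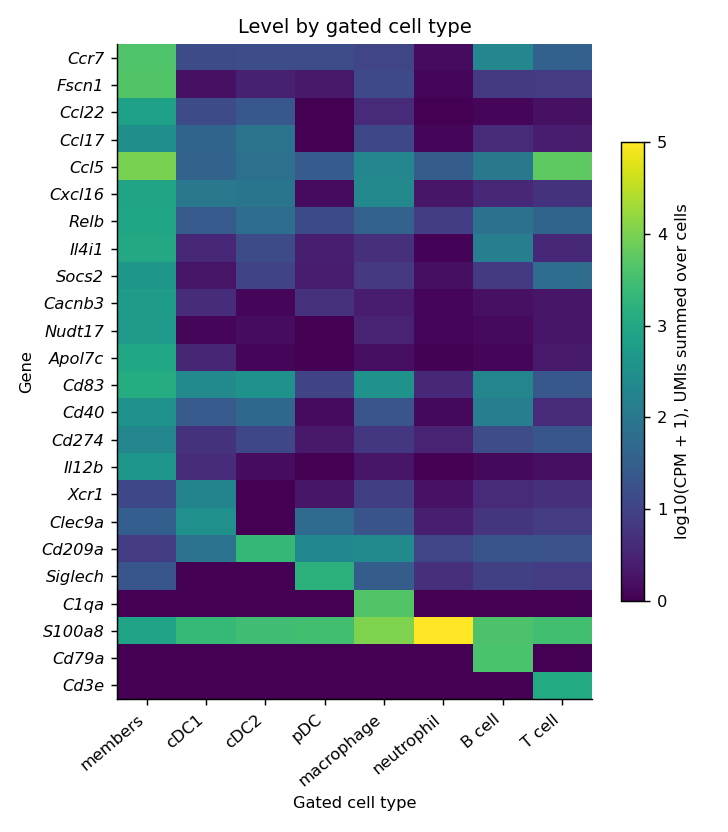
Level of 24 genes in the members and in 7 other gated cell types, as log10(CPM + 1) of UMIs summed over the cells of all libraries. The genes Ccr7, Fscn1 and those at 0 in the gates (C1qa, Cd79a, Cd3e) chose the members, and the others show Ccl22 at 712 CPM in the members and at or near 0 in T cells, B cells and neutrophils.

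The share of members among singlets differed between libraries and, within libraries, between hashtag groups. WT control had 2 members of 6747 singlets (0.0296%, exact Clopper-Pearson 95% interval 0.00359 to 0.107%), WT acute colitis 16 of 4479 (0.357%, 0.204 to 0.579%), WT chronic colitis 6 of 5327 (0.113%, 0.0413 to 0.245%) and WT food allergy 24 of 4584 (0.524%, 0.336 to 0.778%). The App NL-G-F libraries had 6 of 6700 in control (0.0896%, 0.0329 to 0.195%), 9 of 6282 in acute colitis (0.143%, 0.0655 to 0.272%), 8 of 5742 in chronic colitis (0.139%, 0.0602 to 0.274%) and 17 of 6453 in food allergy (0.263%, 0.154 to 0.421%). Without the 6 members with neutrophil markers WT food allergy had 18 (0.393%, 0.233 to 0.620%), and without the member with plasmacytoid markers WT chronic colitis had 5 (0.0939%, 0.0305 to 0.219%). These intervals cover counting error only. In each genotype the food allergy library had the highest share and the control library the lowest.

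Over hashtag groups with at least 100 singlets, none of 7 comparisons of the share passed an adjusted p of 0.05 in two-sided exact permutation tests. The share in WT food allergy was 0.427 ± 0.311% (SD, n = 3) against 0.0227 ± 0.0454% (SD, n = 4) in WT control, with an exact p of 0.057 (adjusted p = 0.4 over the 7). Without the 6 members with neutrophil markers it was 0.336 ± 0.200% (SD, n = 3), with the same exact p. In acute colitis of WT mice it was 0.223 ± 0.295% (SD, n = 3), exact p = 0.29, and in chronic colitis 0.0824 ± 0.0714% (SD, n = 3), exact p = 0.29. Without the member with plasmacytoid markers the chronic colitis share was 0.0724 ± 0.0655% (SD, n = 3), exact p = 0.51. App NL-G-F mice had shares of 0.259 ± 0.276% (SD, n = 4) in food allergy, 0.197 ± 0.171% (SD, n = 3) in acute colitis and 0.122 ± 0.149% (SD, n = 4) in chronic colitis, against 0.0914 ± 0.0820% (SD, n = 4) in control, with exact permutation p-values of 0.4, 0.34 and 0.83. App NL-G-F control against WT control gave an exact p of 0.26. For App NL-G-F chronic colitis the study names fewer mice than there were hashtag groups. By that number some groups shared a mouse, and all p-values given here that use them may be too small. The smallest exact permutation p possible is 0.029 with 4 groups on each side and 0.057 with 3 against 4. After adjustment over 7 comparisons a single difference could therefore not pass. WT food allergy was at this limit of 0.057, since its groups (0.225 to 0.785%) all lay above those of WT control (0 to 0.0907%).

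The hashtag groups fell into 2 sets by the immediate-early genes of their T cells (Fos, Jun, Egr1 and others, which cells switch on rapidly after a stimulus). In 16 groups these genes summed to between 3031 and 6909 CPM in T cells and in 12 groups to between 726 and 1398 CPM. The 16 groups of the high set held 85 of 88 members, 0.283% of 30014 singlets (0.226 to 0.350%), and 15 of them had at least 1. The 12 groups of the low set held 3 members among 16215 singlets, 0.0185% (0.00382 to 0.0541%). Other dendritic cells went the same way, with cDC1 at 4.53% of singlets in the high set and 0.333% in the low set and cDC2 at 1.74% and 0.228%, as did macrophages at 4.23% and 0.179%. Cells with fibroblast markers numbered 220 in the high set and 2 in the low set. Plasmacytoid dendritic cells went the other way, at 1.06% and 2.93%. Whether the sets differed in the tissue taken or in handling is not known and was not tested. The difference between the sets was not tested, since they were found from these data, and its part in the differences between libraries was not tested.

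**Figure D2:**
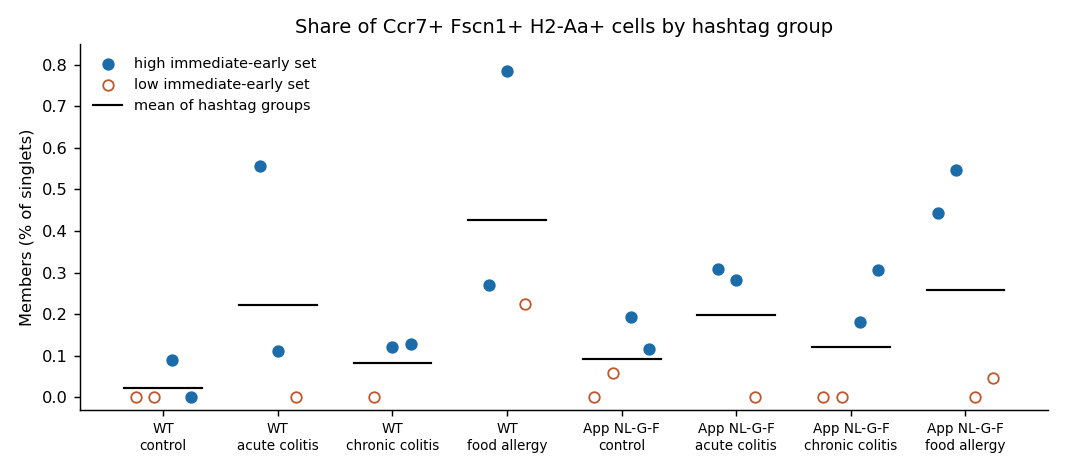
Members as percent of singlets in each of 28 hashtag groups, by library. Filled points are groups of the high immediate-early set, open points groups of the low set, and bars are the means over groups. All open points but 3 lie at 0, and the spread within a library reaches from 0.225 to 0.785% in WT food allergy.

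Within the high set, each treatment and control had 4 groups, 2 of each genotype. In control and chronic colitis these were hashtags 6 and 7, and in acute colitis and food allergy hashtags 4 and 5, so the last 2 treatments and the hashtag pair cannot be told apart against control. Of the gated dendritic cells (members, cDC1 and cDC2 together), members made up 8.04 ± 2.32% (SD, n = 4) in food allergy, with a range of 4.72 to 10.1%, against 1.64 ± 1.16% (SD, n = 4) in control, with a range of 0 to 2.68%. The groups did not overlap, and the exact permutation p was 0.029, the smallest that this design allows (adjusted p = 0.086 over 3 treatments). Without the 6 members with neutrophil markers the share in food allergy was 7.16 ± 2.30% (SD, n = 4), again with no overlap. Acute colitis gave 3.61 ± 1.48% (SD, n = 4) with an exact p of 0.086 and chronic colitis 2.83 ± 0.874% (SD, n = 4) with an exact p of 0.14. The chronic colitis value includes the member with plasmacytoid markers. Over the groups of both sets in App NL-G-F mice the direction was the opposite for colitis, at 2.23 ± 1.93% (SD, n = 3) in acute and 1.63 ± 1.91% (SD, n = 4) in chronic colitis against 3.89 ± 4.94% (SD, n = 4) in control, with exact permutation p-values of 0.91 and 0.63. Food allergy there gave 7.90 ± 5.90% (SD, n = 4), exact permutation p = 0.37. The App NL-G-F control value rested largely on hashtag 5, with 1 member beside 5 cDC1 and 3 cDC2. The other groups of that control were at 0, 1.79 and 2.68%. In App NL-G-F food allergy, hashtag 7 had 1 member beside 4 cDC1 and 2 cDC2. In WT mice over both sets, food allergy gave 21.6 ± 24.7% (SD, n = 3), acute colitis 3.88 ± 2.50% (SD, n = 2) and chronic colitis 1.60 ± 1.60% (SD, n = 3). WT control was at 0.526 ± 1.05% (SD, n = 4), and the exact permutation p-values were 0.057, 0.27 and 0.51. The mean of WT food allergy rested largely on hashtag 7, with 1 member and 1 cDC1, where its other groups were at 4.72 and 10.1%. WT acute colitis had n = 2 because its hashtag 6 group held no member, cDC1 or cDC2. As percent of all singlets the means were 0.511 ± 0.215% (SD, n = 4) in food allergy, 0.315 ± 0.184% with acute and 0.183 ± 0.0859% with chronic colitis, and 0.0995 ± 0.0792% in control, each over 4 groups. Restricting the comparison to the high set was decided after seeing the data.

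To find which genes set the members apart, their UMIs were summed per library and compared with the sums of gated cDC1 and cDC2 of the same libraries, with edgeR's quasi-likelihood test and the library as a block. WT control was not used because it had only 2 members. The members' sums held between 26942 and 141500 gene UMIs, the cDC1 sums between 1192216 and 2503851, so a low level in the members is measured less finely than one in cDC1. Against cDC1, 1099 of 7981 genes tested (13.8%) were higher in members and 1754 (22%) were lower at an adjusted p under 0.05. Against cDC2, 910 of 4693 (19.4%) were higher and 1202 (25.6%) lower. When cells with UMIs of other lineages were left out, 783 were higher and 963 lower against cDC1, and 637 higher and 605 lower against cDC2, so that the larger number against cDC2 was then the higher one. The counts against cDC2 were 961 and 1983 with no filter on low counts and 696 and 779 with no library block. Without the 6 members with neutrophil markers they were 1079 and 1835 against cDC1 and 906 and 1208 against cDC2. Among the 4658 genes tested in both, 758 were higher in both comparisons, 80.9% of the genes higher against cDC1 and 83.4% of those higher against cDC2, and 908 were lower in both. Only 18 passed with opposite signs. Because the members are common to both comparisons, this overlap is no independent support. Where a gene is given by library, control comes first, followed by acute colitis, then chronic colitis, then food allergy. Genes of the gates on either side were kept out of each comparison. The median log2 fold change over all genes tested was -0.24 against cDC1 and -0.14 against cDC2, and the counts for gene lists are set against these medians and percentages.

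**Figure D3:**
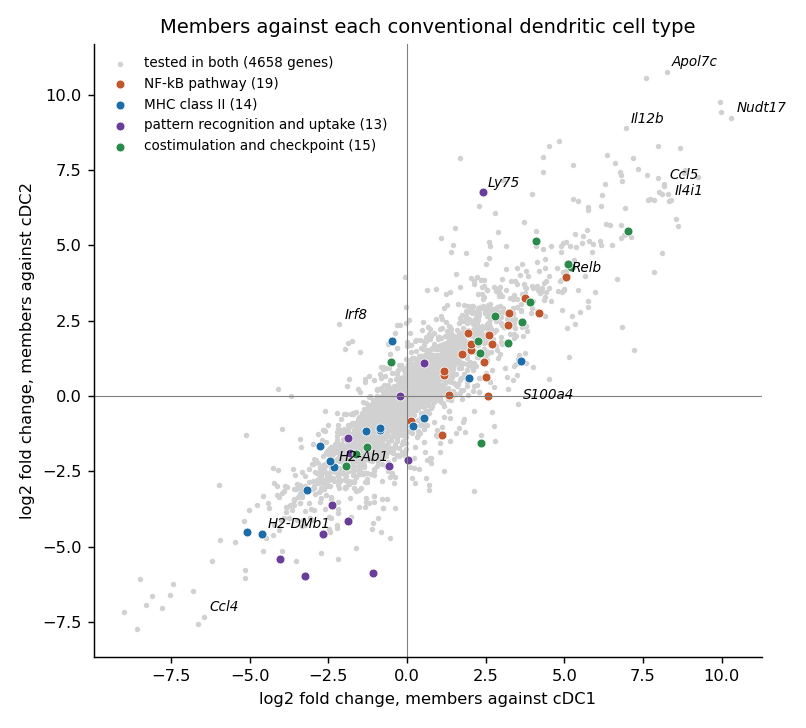
Log2 fold change of each of 4658 genes in members against cDC1 (horizontal axis) and against cDC2 (vertical axis), with 4 gene lists in colour and the number of their genes in brackets. Most NF-κB and most costimulation genes lie to the upper right, most MHC class II and uptake genes to the lower left.

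By size of change, the 10 leading genes against cDC1 among those that went the same way in all 7 libraries were Nudt17, Clu, Slco5a1, Tmem150c, Lad1, Socs2, Stap2, Il4i1, Apol7c and Ccl5. Against cDC2 they were Apol7c, Cacnb3, Clu, Nudt17, Il12b, Arpin, Serpinb6b, Lad1, Scin and Bcl2l14. Several of these were almost absent from the other cells. Nudt17, a hydrolase of the Nudix family, had 301 UMIs in members (491 CPM) and 3 in cDC1, a ratio of 2101, with a 95% counting interval of 712 to 10244. Clu, the extracellular chaperone clusterin, had 179 UMIs in members and 2 in cDC1, a ratio of 1874, with a 95% counting interval of 511 to 15593. Clu was uneven among libraries, with 0, 119.8, 47.5 and 602 CPM in WT and 334, 184, 945 and 14.1 CPM in App NL-G-F libraries, and a UMI of it was found in 18 of 88 members. Cacnb3, a calcium channel subunit, had no UMI in the cDC2 of the 7 libraries compared (and 1 in those of WT control) and was at least 771-fold higher in members, taking 3 counts over the group as the floor. Scin, which encodes the actin-severing protein scinderin, was at least 141-fold higher on the same terms. Apol7c, an apolipoprotein L family gene, had 0, 1273, 71.3 and 1532 CPM in WT and 1670.3, 813, 1238 and 261 CPM in App NL-G-F libraries. It ranged widely and was above both cDC1 and cDC2 in all 7 libraries compared.

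The chemokines were divided, with Ccl5, Ccl22, Ccl17 and Cxcl16 higher in the members and others lower. Ccl5, which attracts T cells, was the most abundant of 16 chemokines in the list, with 368, 5069, 4279 and 9899 CPM in WT and 5864, 18694, 16226 and 9074 CPM in App NL-G-F libraries. In cDC1 it stayed at or under 82.8 CPM in every library and in cDC2 at or under 196 CPM. WT control had the lowest level, above its cDC1 and cDC2, and it came from 1 of the 2 members, the other having no UMI of Ccl5. The log2 fold change was 8.18 ± 0.21 (SE) against cDC1 (edgeR, adjusted p = 5.9e-156) and 7.04 ± 0.50 against cDC2 (adjusted p = 3.6e-11). In all, Ccl5 summed to 9664 CPM in the members and to 5713 CPM in gated T cells. Cd3g and Nkg7 were at 1329 and 1184 CPM in T cells and at 4.83 and 12.9 CPM in the members, whose gate left out cells with a UMI of Cd3e.

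Ccl22, which attracts CCR4-bearing T cells, had 0, 958, 1189 and 573 CPM in WT and 817, 1299, 429.7 and 289.8 CPM in App NL-G-F libraries. The 7 libraries with more than 2 members lay above all cDC1 and cDC2 libraries, whose highest values were 36.4 and 56.7 CPM. The log2 fold change was 6.31 ± 0.25 against cDC1 and 5.71 ± 0.37 against cDC2, with edgeR adjusted p-values of 1.5e-92 and 6.6e-12. Ccl17, the other CCR4 ligand, lies at chr8:94810453-94812036 (GRCm38, plus strand), near Ccl22 at chr8:94745590-94751699 (plus strand), and changed less, at 3.35 ± 0.26 and 2.52 ± 0.47. Cxcl16, a membrane-bound chemokine and ligand of CXCR6, was 837 CPM against 97.4 CPM in cDC1 and 85.8 CPM in cDC2. Ccl4, Ccl6 and Ccl9, which act on receptors of monocytes and other leukocytes, were lower than in cDC2. Ccl4 had 1 UMI in members against 1845 in cDC1 and 1397 in cDC2, a ratio to cDC2 of 0.00457, with a 95% counting interval of 0.000116 to 0.0255, and Ccl6 and Ccl9 were lower than in cDC2, at log2 fold changes of -3.53 ± 0.33 and -2.71 ± 0.37. Cxcl2, which attracts neutrophils, was counted as higher against cDC1 at a log2 fold change of 1.04, but without the WT acute colitis library the value was -0.084 and without WT food allergy 1.71. Its call was also lost without the App NL-G-F control library (0.82) and without the 6 members with neutrophil markers (0.53), as well as with RLE scaling, DESeq2, no filter and the gate at 2 UMIs. In all, 11 chemokines were tested against cDC1, of which 5 were higher and 3 lower (median 0.59), and 12 against cDC2, of which 4 were higher and 7 lower (median -2.07).

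**Figure D4:**
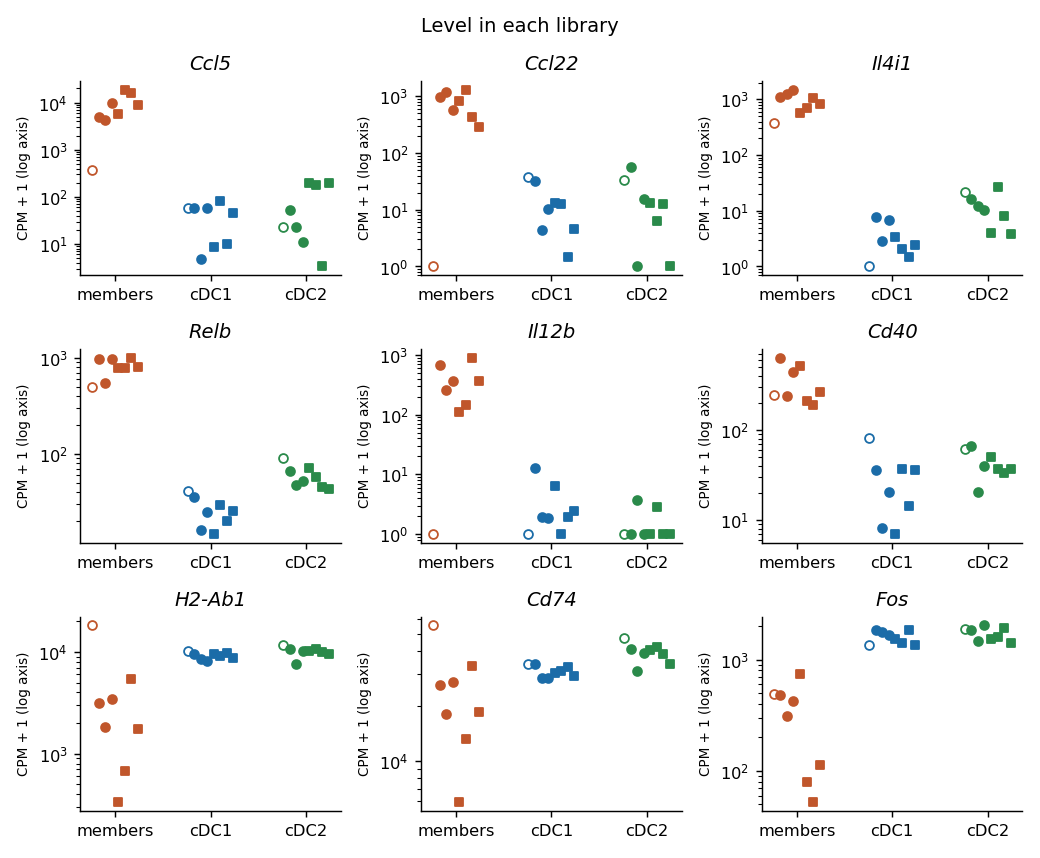
Level of 9 genes in members, cDC1 and cDC2 of each library, as CPM + 1 on a log axis. Circles are WT and squares App NL-G-F libraries, each set running from control at the left through acute and chronic colitis to food allergy, and open circles are WT control, where only 2 members were found. Ccl5, Ccl22, Il4i1, Relb and Il12b of the members lie above those of cDC1 and cDC2 in the 7 other libraries, and H2-Ab1 and Fos lie below.

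Among the receptors, Ccr2 and Cx3cr1 were lower in the members and Gpr183 was higher. Ccr2, which brings monocytes and dendritic cell precursors into tissue, was 24.5 CPM against 262 CPM in cDC1 and 420.5 CPM in cDC2. Cx3cr1, the fractalkine receptor, had no UMI in the members used and was at least 14.8-fold lower than in cDC2. Gpr183, a receptor for oxysterols that positions dendritic cells in lymphoid tissue, rose in both comparisons (2.01 ± 0.27 and 1.12 ± 0.33), and Ccrl2 rose against cDC1 (3.18 ± 0.28). Of the list of chemokine and lipid receptors, 3 of 8 tested were higher and 3 lower than in cDC1 (median -1.13), and 1 of 7 was higher and 4 lower than in cDC2 (median -3.06).

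Genes of the cytoskeleton mostly rose, with 11 of 19 tested higher and 4 lower in either comparison (median 0.60 against cDC1 and 0.89 against cDC2). Marcksl1, an actin and calmodulin binding protein, was 2219 CPM against 69.2 CPM in cDC1 and 229.9 CPM in cDC2. Swap70, a Rac-binding protein, rose by 3.37 ± 0.22 and 3.22 ± 0.21, and Tubb2b, a β-tubulin, by 3.14 ± 0.31 and 4.98 ± 0.38 on the log2 scale. Rac2 and Was, 2 regulators of actin in blood cells, were lower in both comparisons. Adhesion genes divided evenly, with 6 higher and 6 lower of 14 against cDC1. Icam1, the ligand of the integrin LFA-1, and Itga4 rose (2.81 ± 0.21 and 1.72 ± 0.20 against cDC1), whereas the leukocyte integrin chains Itgb2 and Itgb7 fell, from 302 to 32.6 CPM and from 323 to 17.9 CPM.

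Most costimulatory and checkpoint ligands were higher in the members. Against cDC1 11 of 16 tested were higher and 4 lower (median 2.59), and against cDC2 11 of 15 were higher and 4 lower (median 1.84). Cd40, through which helper T cells license dendritic cells, had 245, 636, 238 and 439 CPM in WT and 519.6, 209.9, 189 and 261 CPM in App NL-G-F libraries, all above the cDC1 value of the same library. It rose by 3.92 ± 0.25 against cDC1 (edgeR, adjusted p = 5.6e-45) and by 3.11 ± 0.23 against cDC2 (adjusted p = 6.5e-11). Cd83, which stabilises MHC class II and CD86 at the surface, was 1235 CPM against 235 CPM in cDC1 and 357 CPM in cDC2. Cd80 rose in both comparisons (3.66 ± 0.43 and 2.47 ± 0.41). Cd86 passed against cDC2 only (1.15 ± 0.33, adjusted p = 0.0059; against cDC1 -0.51 ± 0.27, adjusted p = 0.13). The genes of the inhibitory ligands PD-L1 (Cd274), PD-L2 (Pdcd1lg2) and CD200 rose as well, Cd274 from 4.13 CPM in cDC1 and 9.96 CPM in cDC2 to 197 CPM. Genes of the list that fell against both were Cd48, Lgals9 and Vsir.

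A list of regulatory genes described in mature dendritic cells overlaps the last one in Cd200, Cd274 and Pdcd1lg2. Against cDC1 10 of 11 tested were higher and none lower (median 5.06), and against cDC2 8 of 10 were higher and 1 lower (median 4.34). Il4i1, a secreted amino acid oxidase that restrains T cells, had 368, 1101, 1259.9 and 1480.0 CPM in WT and 557, 708, 1066 and 827 CPM in App NL-G-F libraries. All 8 values lay above the highest cDC1 and cDC2 libraries (6.79 and 25.5 CPM), and the log2 fold changes were 8.34 ± 0.27 and 6.48 ± 0.29 (edgeR, adjusted p = 2.9e-119 and 1.1e-14). B cells held Il4i1 at 137 CPM. Socs2, a suppressor of cytokine signalling, rose by 8.55 ± 0.32 and 5.88 ± 0.33, and Aldh1a2, which makes retinoic acid, by 5.34 ± 0.38 and 5.38 ± 0.39. Socs3 went the other way against cDC2, from 673 to 96.3 CPM. Ido1 and Ido2, genes of tryptophan breakdown, had no UMI in any member, which at 621079 gene UMIs allows up to 4.83 CPM.

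Among cytokines, Il12b, the p40 chain of IL-12 and IL-23, had 0, 666, 261 and 357 CPM in WT and 111, 144, 894 and 360.4 CPM in App NL-G-F libraries. The 7 libraries compared lay above all of cDC1, with a highest value of 12 CPM, and the log2 fold change was 6.95 ± 0.30 (edgeR, adjusted p = 8.4e-79). In cDC2 there were 2 UMIs, a ratio of 846, with a 95% counting interval of 232 to 7024. The partner chains Il12a and Il23a had no UMI in the members. Il15 and its receptor chain Il15ra, which together present IL-15 to T and NK cells, rose in both comparisons, Il15 by 1.96 ± 0.33 and 2.55 ± 0.33 and Il15ra by 3.72 ± 0.31 and 5.77 ± 0.42. Il1b fell against cDC2, from 1105 to 206 CPM, and Tgfb1 and Il18 fell against cDC1 (-2.0 ± 0.28 and, with 2 UMIs in members, a ratio of 0.0815, with a 95% counting interval of 0.00984 to 0.296). Il10 had no UMI. Of 19 cytokines, 10 were tested against cDC1 (5 higher, 2 lower) and 8 against cDC2 (3 higher, 3 lower).

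Most genes of the NF-κB pathway were higher in the members, although Nfkb1 was not called higher. In this pathway IκB proteins hold NF-κB dimers in the cytoplasm, and the noncanonical arm, through the kinase NIK (Map3k14), frees RelB and p52. Against cDC1, 18 of 20 genes were higher and none lower (median 2.24). Against cDC2, 13 of 19 were higher and 2 lower (median 1.52). Relb had 491, 958, 547 and 959 CPM in WT and 779, 774, 997 and 806 CPM in App NL-G-F libraries, and its lowest member library lay above the highest of cDC1 (40.1 CPM) and of cDC2 (90.9 CPM). The log2 fold change of Relb was 5.06 ± 0.22 against cDC1 and 3.94 ± 0.20 against cDC2 (edgeR, adjusted p = 3.4e-81 and 1.7e-13). Of the noncanonical arm, Nfkb2, the gene of p52, rose by 3.21 ± 0.23 and 2.35 ± 0.23 and Map3k14 by 3.23 ± 0.26 and 2.77 ± 0.31. Of the canonical arm, Rel rose by 2.69 ± 0.21 and 1.72 ± 0.19, while Nfkb1 did not pass against cDC1 (adjusted p = 0.71) and fell by 0.85 on the log2 scale against cDC2. Inhibitors and adaptors were among the risers, such as Nfkbia (IκBα) at 1910.5 CPM against 288 CPM in cDC1 and 1209.8 CPM in cDC2, and Traf1 at 989 CPM against 48.7 CPM and 151 CPM. Tnfaip3 (A20) and Bcl3 rose against cDC1 only, and against cDC2 their adjusted p-values were 0.99 and 0.94.

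Promoters of this list were searched for the letters GGGNNTTTC, which begin many κB sites, on both strands of the 300 bases from 250 before to 50 after each annotated start (RefSeq, GRCm38.p6). Of 17 list genes with a promoter in the table, 7 held a match (41.2%), namely Nfkb2, Nfkbia, Rel, Rela, Tnfaip3, Traf2 and Traf3. The share was 5.06% of 27025 genes with a promoter, 5.39% of 3731 genes tested in both comparisons and 8.17% of 612 genes higher in both. Among 18 migratory dendritic cell markers with a promoter in the table, Apol7c alone held these letters. Short stretches upstream of 4 of the 7 list genes are shown, because all 4 rose in both comparisons and had a match that lay wholly before the start. Traf2 rose in both as well, but no match of it lay wholly before its start. Each is written 5′ to 3′ on the strand of the gene with the match in capitals, and a match on the opposite strand reads GAAANNCCC. The letters were chosen with the results known and were shortened from a longer κB form, searched first, which fewer promoters held.
Rel, chr11:23771025-23771084, minus strand: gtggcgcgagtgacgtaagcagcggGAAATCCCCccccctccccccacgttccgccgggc
Nfkbia, chr12:55492726-55492785, minus strand: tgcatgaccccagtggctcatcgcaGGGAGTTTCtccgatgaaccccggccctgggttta
Nfkb2, chr19:46304701-46304736, plus strand: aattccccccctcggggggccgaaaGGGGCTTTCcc
Traf3, chr12:111166335-111166369, plus strand: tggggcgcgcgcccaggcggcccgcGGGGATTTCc
The capitals began 90 bases before the start of Rel, 113 before that of Nfkbia, 11 before 1 of the starts of Nfkb2 and 10 before that of Traf3. Nfkbia had a further match, and Nfkb2 had others before its other starts. The members' levels of Rel, Nfkbia, Nfkb2 and Traf3 were 457, 1910.5, 286 and 45.7 CPM.

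Antigen presentation moved in opposite directions for the 2 classes of MHC. H2-Aa chose the members and was not tested. Of the other class II genes and their processing factors, 10 of 14 were lower and 3 higher against cDC1 (median -1.09) and 11 of 14 lower and 3 higher against cDC2 (median -1.14). H2-Ab1, the β chain that pairs with H2-Aa, had 18157, 3115, 1830.5 and 3473 CPM in WT and 334, 669, 5397 and 1753 CPM in App NL-G-F libraries. The cDC1 libraries lay between 8094 and 10299 CPM. The members of WT control were above that range and all others below it, and the log2 fold change over the 7 others was -2.33 ± 0.17 (edgeR, adjusted p = 1.3e-36). The genes of the peptide-loading chaperone H2-DM fell further, H2-DMb1 from 1094 CPM in cDC1 and 1152 CPM in cDC2 to 48.9 CPM. Ciita, the master regulator of class II transcription, fell by 2.45 and 2.17 on the log2 scale. March1, an E3 ligase that removes class II from the surface, had 2 UMIs in the members against 1437 in cDC1, a ratio of 0.0291, with a 95% counting interval of 0.00353 to 0.105. The genes of the list that rose against both were the lysosomal reductase Ifi30 and the protease Lgmn.

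Most class I genes tested were higher in the members. Against cDC1 10 of 17 were higher and 1 lower (median 1.09), and against cDC2 14 of 17 were higher and 1 lower (median 1.33). H2-K1 was 3354 CPM against 840.2 CPM in cDC1 and 994 CPM in cDC2, B2m 3873 CPM against 1003 CPM and 1084 CPM, and Nlrc5, the class I transactivator, 108 CPM against 20.2 CPM and 10.2 CPM. The transporter genes Tap1 and Tap2 and the immunoproteasome gene Psmb9 passed against cDC2 only, with adjusted p-values of 0.1, 0.7 and 0.96 against cDC1. H2-K1, H2-D1 and the Q and T genes are near-identical in sequence, so their separate values are uncertain. The nonclassical gene H2-M2 had 144 UMIs in members, 1 in cDC1 and none in cDC2, at least 307-fold higher than in cDC2.

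Most genes of pattern recognition and uptake were lower in the members. Against cDC1 11 of 17 were lower and 1 higher (median -1.87), and against cDC2 13 of 16 were lower and 2 higher (median -3.89). Tlr3, the double-stranded RNA sensor of cDC1, had no UMI in the members and was at least 26.4-fold lower than in cDC1. The inhibitory Fc receptor gene Fcgr2b fell from 502 CPM in cDC2 to 11.4 CPM, Cd14 from 224 to 8.16 CPM and the lectin gene Clec10a from 597 to 9.79 CPM. Ly75, which encodes the uptake receptor DEC-205, was the 1 gene of the list that was higher in both comparisons (Tlr13 was higher against cDC2), with 0, 389, 214 and 171 CPM in WT and 297, 184, 498 and 148 CPM in App NL-G-F libraries, a rise of 2.40 ± 0.23 against cDC1 and of 6.77 ± 0.42 against cDC2. Other genes that led the falls were, against cDC1, Sept3, Qpct, Rasgrp4, P2ry14, Cyp8b1, Zfp710, Cysltr1 and Rab7b, and, against cDC2, Cd209c, Cysltr1, Clec4a1, Ctnnd2, Hpgd, Fcgr1, Siglece and Cd33. Cysltr1, a leukotriene receptor, had no UMI in the members and was at least 10.5-fold lower than in cDC1 and at least 16.9-fold lower than in cDC2.

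Marks of either lineage were reduced in the members. Of 10 cDC1 markers tested, 9 were lower than in cDC1, Naaa from 1079 to 17.9 CPM, and of 10 cDC2 markers 8 were lower than in cDC2, Mgl2 from 795 to 37.5 CPM. Batf3, a transcription factor needed for cDC1, was higher than in both (0.73 ± 0.20 and 2.24 ± 0.21). Irf8, also a cDC1 factor, lay between them, at 349 CPM against 1419 in cDC1 and 63.4 in cDC2. S100a4, a calcium-binding protein abundant in cDC2, was 1038 CPM in members, 1024 in cDC2 and 71.8 in cDC1. Of the 82 members with fewer than 5 neutrophil markers, 11 carried 2 or more lineage genes of cDC1 and at most 1 of cDC2. Another 4 carried the reverse, 2 carried both and 65 carried at most 1 of each. Other transcription factors that rose in both comparisons were Stat4 (5.23 ± 0.36 and 2.65 ± 0.31), Nr4a3 (3.61 ± 0.25 and 2.82 ± 0.32), Etv3, Spib and Irf1, and Klf2, Klf4 and Cebpa fell in both.

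Survival genes were higher where they passed, apart from Casp8 against cDC2, with 8 of 14 higher and none lower against cDC1 (median 1.70) and 7 of 12 higher and 1 lower against cDC2 (median 1.88). Bcl2a1b, an antiapoptotic Bcl-2 relative, was 1232 CPM against 70.4 CPM in cDC1 and 135 CPM in cDC2, though the Bcl2a1 copies share most of their sequence and their reads may be divided among them. Fas, the death receptor gene, rose too (5.06 ± 0.44 and 4.16 ± 0.48). Sterol genes were higher where they passed, 6 of 11 against cDC1 and 5 of 8 against cDC2, among them Idi1 and Hmgcs1 of cholesterol synthesis (3.51 ± 0.27 and 1.66 ± 0.34 against cDC1) and the exporter gene Abcg1. Of 14 cell-cycle genes 8 were lower in either comparison. Immediate-early genes were lower, 8 of 10 against cDC1 and 10 of 10 against cDC2, for example Fos with 491, 479, 309 and 424 CPM in WT and 742, 78.7, 51.6 and 113 CPM in App NL-G-F libraries against 1658 CPM in cDC1 and 1770.3 CPM in cDC2. Members, cDC1 and cDC2 all came mainly from the high immediate-early set, with 85 of 88, 1361 of 1416 and 521 of 559 cells. Interferon-stimulated genes were mixed, with 5 of 15 higher and 4 lower against cDC1. Of these 5, Gbp2 had the largest log2 fold change (4.12 ± 0.25), while Ifit3 had no UMI in the members compared and was at least 4.36-fold lower than in cDC1.

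Of 16 genes linked to Alzheimer's disease risk or to amyloid, Trem2, Cd33, Abca1, Bace1 and Lpl had no UMI in members. App itself was 119 CPM against 102 CPM in cDC1 (adjusted p = 0.8) and 224 CPM in cDC2, where it passed as lower in members (-0.92 ± 0.23, adjusted p = 0.002). The list had 1 gene higher and 2 lower of 10 against cDC1 and none higher and 9 lower of 12 against cDC2, with Apoe and Tyrobp among the lower.

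The members also varied among themselves. In 75 members with at least 2000 gene UMIs and fewer than 5 neutrophil markers, the sum of H2-Ab1, H2-Eb1 and Cd74 ranged from 1.03 to 1266 UMIs per 10000 gene UMIs around a median of 170. Ccl5 ranged from 0 to 1028 per 10000 around a median of 54.4, with no UMI in 6 of the 75. The 75 include the member with haemoglobin, which had the lowest class II sum. They also include the member with plasmacytoid markers, at 77.8 per 10000 for class II and no UMI of Ccl5. No value is given without these members. The 38 members at or under the class II median had a median of 140 Ccl5 UMIs per 10000, and the 37 above it a median of 22.1. Spearman's rho between Ccl5 and H2-Ab1 was -0.56 and between Ccl5 and Cd74 -0.50 over the 75 cells, which share libraries and whose values share the cell's total. Cd74 and H2-Ab1 went together at 0.86, and the gate genes Ccr7 and Fscn1 at 0.54. Ccl22 had a UMI in 18 of the 38 and in 29 of the 37. Depth differed between these groups, with medians of 6646 and 8744 gene UMIs, and its part was not tested.

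**Figure D5:**
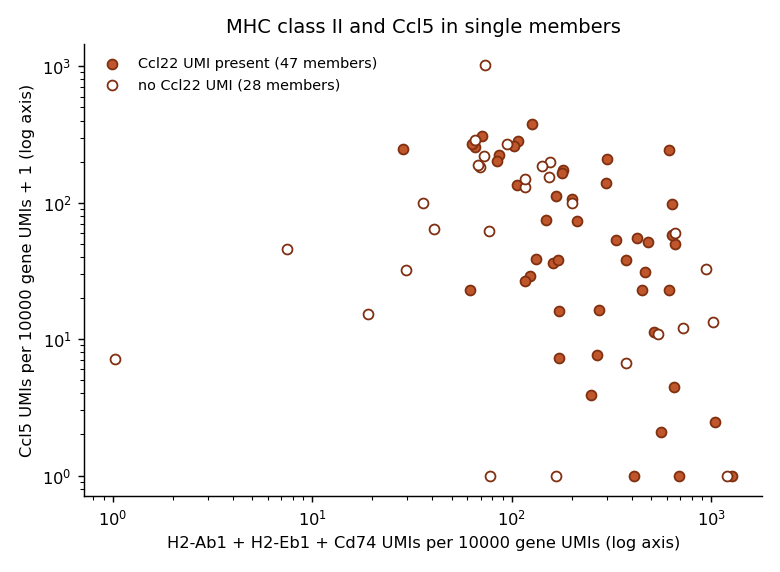
Each of 75 members by the summed class II transcripts H2-Ab1, H2-Eb1 and Cd74 (horizontal) and by Ccl5 (vertical), both per 10000 gene UMIs on log axes, with 1 added to Ccl5. Filled points are the 47 members with a Ccl22 UMI. Members with the most Ccl5 lie at low class II, and the lowest Ccl5 values lie mostly at high class II.

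Members with and without a Ccl17 UMI were compared in 5 libraries that had at least 3 of each. Of 964 genes tested 2 passed (0.207%), and 58 had an unadjusted p under 0.05. Ccl22 was higher in the members with Ccl17, at 1412 CPM against 258 CPM, a log2 fold change of 2.19 ± 0.26 (SE, edgeR, adjusted p = 0.0011), and it was higher in 5 of 5 libraries. The 2 chemokines also went together across the 75 members, with a Spearman's rho of 0.46. Hist1h1b, a histone gene of dividing cells, passed as lower (adjusted p = 0.048), with 1 UMI against 134, a ratio of 0.0129, with a 95% counting interval of 0.000325 to 0.0733, but it was lower in only 3 of 5 libraries. Ccl22 was the 1 gene called by DESeq2, and it passed without each of the 5 libraries. Hist1h1b did not pass without the WT acute colitis, WT food allergy, App NL-G-F acute colitis or App NL-G-F food allergy library, nor with RLE scaling, the gate at 2 UMIs or without the members with neutrophil markers. How far a deeper member was likelier to show a UMI of both chemokines was not tested.

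Genotype and treatment were compared in the members with 1 sum per library, over 8 libraries in a model with both factors. Of 1181 genes tested none passed for App NL-G-F against WT (0%), with 50 at an unadjusted p under 0.05 in edgeR and 0 called by DESeq2. The treatments against control gave 0 genes as well, with 104 genes at an unadjusted p under 0.05 and 0 called by DESeq2 in acute colitis, 95 and 5 in chronic colitis, and 84 and 0 in food allergy. The 5 genes of DESeq2 in chronic colitis, named after their values were seen, were Cst3 and Ftl1 (higher) and Ifitm3, Lars2 and Wfdc17 (lower). The control arm rested on 8151 UMIs of 2 cells in WT and 26942 UMIs of 6 cells in App NL-G-F mice, so only large differences could be seen. Leaving out 1 library moved the count of 0 for genotype in every case and for each treatment in some cases. With all 8 libraries kept, no filter on low counts gave 33 genes for genotype. The same setting gave 14, 4 and 5 for acute colitis, chronic colitis and food allergy, and the gate at 2 UMIs gave 1 for genotype. For genotype, 4 genes passed without WT acute colitis and 4 without App NL-G-F acute colitis, in both cases Lcn2, Ly6d, Ngp and S100a9, of which all but Ly6d are neutrophil genes and Ly6d came from the member with plasmacytoid markers in all but 1 UMI. Leaving out another library gave 7 (WT control), 12 (WT chronic colitis), 10 (WT food allergy), 15 (App NL-G-F control), 17 (App NL-G-F chronic colitis) or 14 genes (App NL-G-F food allergy), each time with Hbb-bs of haemoglobin among them. For the treatments, taken as acute colitis, then chronic colitis, then allergy, 27, 18 and 8 genes passed without App NL-G-F control, and without App NL-G-F food allergy 9, 2 and 7. Without WT control 2, 2 and 1 passed, and in acute colitis 1 gene passed without WT acute colitis, WT chronic colitis, WT food allergy or App NL-G-F chronic colitis. Control and each treatment had 2 libraries, so a fit without 1 of them left 1 library in that arm. The spread in such a fit came from the other groups, and its count of genes says little about stability. By value, Ccl5 was highest in the App NL-G-F acute and chronic colitis libraries. Ccl17 was highest in WT chronic colitis, with 0, 427, 1189 and 223 CPM in WT and 297, 131, 206 and 198 CPM in App NL-G-F libraries. In WT chronic colitis a single member held 46 of the UMIs of Ccl17.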

How the data were processed

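The authors deposited UMI counts per gene (32285 genes) and hashtag for every barcode of 8 libraries made with a 10x 5′ kit from sorted CD45.2-positive brain cells, 1 library per condition. The submitters' processing notes name Cell Ranger 6.1.2 and mm10. The counts are not normalized, and free RNA and doublets beyond hashtag doublets were not removed. From them, singlets were kept by the limits given with the members, and cell types were gated by marker counts, with no clustering. cDC1 had a UMI of Xcr1 or Clec9a and cDC2 of Cd209a. UMIs were summed per library and type where both types had at least 5 cells, and tested with edgeR 4.0.16 (filterByExpr, TMM, quasi-likelihood, library as block), with Benjamini-Hochberg adjustment over all genes and a threshold of 0.05. Shares were tested over hashtag groups with scipy 1.17.1. The 10 genes named in each direction had the largest change among those past the threshold, with at least 50 CPM in either type and the same sign in every library. Fold changes against a type with no UMI used 3 counts over the group as the floor. Alternatives were RLE scaling, DESeq2 1.42.0, no filter, other gates and depths, and leaving out each library or hashtag group. The members and the gene lists were chosen with earlier results of these data known. Values for some marker genes are not reported here.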

Additional observations from a re-analysis of the deposited data

Results flagged for a closer look

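The share of members in the hashtag 6 group of WT control was 0.0907%, and the other 3 hashtag groups of WT control held none. This set it apart by the spread of its library, as any share above 0 would have been beside 3 groups at 0. The value rests on 2 cells, and the exact 95% upper limits of the 3 groups at 0 were 0.400, 0.179 and 0.236%, all above it.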

How the results depend on the processing

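Hashtag groups are not tied to animals, each condition is 1 library, and 88 cells limit every comparison within the members, so a low count of called genes within them says little about stability. Of 9146 values for single genes under alternatives, 8485 kept their direction and side of the threshold, and 298 lost and 126 gained significance. Another 228 turned sign for genes that had not passed in the main fit, and 9 for genes that had passed. Shares turned sign in App NL-G-F chronic colitis against control without the H2-Aa requirement (-0.0314 percentage points). As percent of gated dendritic cells they turned sign in App NL-G-F acute (-1.67) and chronic colitis (-2.27). The control value in the last 2 rested largely on 1 hashtag group, with 1 member beside 5 cDC1 and 3 cDC2. Leaving out 1 hashtag group gave differences of 0.0328 to 0.311 for WT acute colitis, 0.0372 to 0.101 for WT chronic colitis, 0.225 to 0.505 for WT food allergy, 0.050 to 0.204, -0.0311 to 0.0707 and 0.0720 to 0.254 for the same treatments of App NL-G-F mice, and 0.0351 to 0.0992 for App NL-G-F against WT control. Against cDC1, leaving out 1 library gave 877 to 1048 higher and 1494 to 1817 lower genes, and leaving out cells with UMIs of other lineages gave 963 lower. Against cDC2 the ranges were 783 to 947 and 1004 to 1135, and lower genes numbered 1983 with no filter, 605 without cells with UMIs of other lineages and 779 with no library block. The share of higher among called genes was 43.1% against cDC2, and 32.6%, 51.3% and 47.2% under those settings. Leaving out the 6 members with neutrophil markers, or the 1 with plasmacytoid markers, moved no count of genes against cDC1 or cDC2 by over 1.5 times, and both settings were chosen after seeing the data. For Ccl17, 1 gene (Ccl22) passed with RLE, DESeq2, the gate at 2 UMIs, without cells above the 95th percentile of UMIs or without the members with neutrophil markers, 39 with no filter, and 1 to 2 without 1 library. Genotype gave 33 with no filter, 1 (Lyz2) with the gate at 2 UMIs and 4 to 17 without 1 library. Acute colitis, chronic colitis and food allergy gave 14, 4 and 5 with no filter and 0 to 27, 0 to 18 and 0 to 8 without 1 library, and DESeq2 gave 5 for chronic colitis. Log2 fold changes of 9 genes that had passed in the main fit turned sign. Against cDC1 these were Fcer1a (0.82), Ly6g (1.15) and Mcpt8 (2.78) in DESeq2. Hba-a1 (-6.56), Hbb-bs (-8.17) and Hbb-bt (-5.99) did so against cDC1 with the gate at 2 UMIs. That gate leaves out the 1 member that held nearly all haemoglobin UMIs. Cxcl2 against cDC1 was at -0.084 without WT acute colitis, within a range of -0.084 to 1.71 on leaving out 1 library. Against cDC2 they were Mmp8 (0.61) in DESeq2 and Tmsb10 (0.085) without other-lineage cells. Beyond the haemoglobin genes, the cause of these changes was not tested. Members, cDC1 and cDC2 were paired by library throughout, apart from the fit with no library block. The genotype fit was adjusted for treatment and the treatment fits for genotype. For shares, no paired analysis was possible because nothing ties the hashtag groups of one library to those of another.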
